A study of Mus musculus with 12 samples.

Results

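The 41 genes described here are mouse genes of the interferon response and of antigen presentation, chosen by name from the 23378 genes of the count table. They comprise 4 MHC class I chains (B2m, H2-D1, H2-K1 and H2-T23), 3 genes of peptide transport and loading, 3 immunoproteasome subunits, the class I transactivator Nlrc5, 4 interferon receptor chains, 5 transcription factors, 2 RNA sensors, 13 interferon-stimulated effectors, 3 guanylate-binding proteins and 3 MHC class II genes. All 41 had a row in the table and 40 entered the tests. Isg15, an interferon-induced ubiquitin-like modifier, did not pass the filter on low counts and was not tested.

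RNA was sequenced from cells of the kidney cortex of C57BL6 mice that carried 2 alleles in every group, nNOS/CreERT2 (a tamoxifen-inducible Cre recombinase driven by the neuronal nitric oxide synthase gene) and mTmG (a reporter that replaces membrane tdTomato with membrane GFP after recombination). Sorting took the green cells for macula densa, the salt-sensing cells of the distal tubule beside the glomerulus. Control cells were those with the strongest red signal, intended by the submitters to stand for distal tubule and collecting duct epithelium. Each population was taken from mice on control diet and from mice given low salt diet (TD 90228) with 150 mg/L of enalapril, an inhibitor of angiotensin-converting enzyme, in the drinking water (LS+ACEi), for 14 days. There were 2 macula densa libraries and 4 control-cell libraries per diet, 12 in all. The labels do not say whether replicates came from separate mice, so the p-values measure only the spread between these libraries, which may be technical.

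Interferons are cytokines that signal through the receptor chains Ifnar1 and Ifnar2 (type I) or Ifngr1 and Ifngr2 (type II) to transcription factors such as Stat2 and Irf9. These factors bind a short promoter element, the interferon-stimulated response element (ISRE), and switch on effector genes that restrict viral RNA, cap-dependent translation or vesicle membranes. Nlrc5 and Irf1 also raise MHC class I, whose heavy chains pair with B2m and display peptides that the immunoproteasome cuts, Tap1 and Tap2 import into the endoplasmic reticulum and Tapbp helps to load. Class I is carried by nearly every nucleated cell, whereas MHC class II (H2-Aa and H2-Ab1) and its chaperone Cd74 belong mainly to dendritic cells, macrophages and B cells.

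The ISRE is shown first because it is a known element of the type I interferon response. RefSeq promoters on GRCm38.p6, 250 bases before to 50 after the start of a gene, matched 35 members. The core GAAANNGAAA, or TTTCNNTTTC when it lies on the other strand, was found in 12 of these 35 (34.3%) and in 1079 of 27025 genes (3.99%). Of the 32851 promoters of the same length, 1131 held it (3.44%). The members were chosen by name for the interferon response and antigen presentation, so their higher share is not a result of these libraries. In the sequences, read 5′ to 3′ on the strand of the gene, capitals mark the ISRE cores, overlapping ones joined.
Ifit1, chr19:34640775-34640823, plus strand: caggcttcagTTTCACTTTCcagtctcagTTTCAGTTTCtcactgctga
Gbp3, chr3:142559989-142560024, plus strand: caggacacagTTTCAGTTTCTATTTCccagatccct
Gbp7, chr3:142530273-142530302, plus strand: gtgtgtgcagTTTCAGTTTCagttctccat
H2-T23, chr17:36032806-36032835, minus strand: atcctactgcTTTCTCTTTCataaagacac
B2m, chr2:122147538-122147567, plus strand: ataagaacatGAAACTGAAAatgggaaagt
Isg15, chr4:156200865-156200906, minus strand: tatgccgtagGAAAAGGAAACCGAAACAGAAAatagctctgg
Ifit1 and Ifit3 each held 2 cores, and Isg15 held 3 overlapping ones. The first core began 104 bases upstream of the start in Ifit1, 45 in Gbp3, 53 in Gbp7, 124 in H2-T23, 139 in B2m and 78 in Isg15. Because Ifit3 was the effector with the highest level per base in control cells, the 250 bases upstream of its start are given whole, with the first core 156 bases upstream.
Ifit3, chr19:34583279-34583528, plus strand: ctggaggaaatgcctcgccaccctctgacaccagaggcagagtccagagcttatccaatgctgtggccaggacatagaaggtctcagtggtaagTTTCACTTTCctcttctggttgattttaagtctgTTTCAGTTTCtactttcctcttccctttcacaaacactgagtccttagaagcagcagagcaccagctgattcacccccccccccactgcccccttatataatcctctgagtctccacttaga
The gamma-activated site (GAS) TTCNNNGAA, which reads the same on both strands and was counted whether or not it overlapped an ISRE core, was in 8 of the 35 members (22.9%) and in 9.55% of genes. A match is a description of letters in this window and does not show that a factor was bound.

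Library totals ranged from 4259020 to 14856542 counts, of which the single gene Gm42418 held 53.5% to 65.0%. Counts on nuclear protein-coding genes ranged from 781257 to 2331481, and the 41 members together had 1343 to 6707 counts in a library. The macula densa label was checked with 8 marker genes, which summed to 2279 to 3276 CPM (counts per 1000000 of the library size, scaled by edgeR's trimmed mean of M values) in macula densa libraries and to 87.0 to 449 CPM in control-cell libraries. Markers of the adjoining thick ascending limb (8 genes) were also high there, at 2481 to 4350 CPM against 210 to 1638 CPM (Slc12a1, the apical sodium-potassium-chloride cotransporter, is in both lists). Proximal tubule markers (8 genes) were at 44.4 to 213 CPM and 31.9 to 91.0 CPM. Of the 8 macula densa markers, 6 were higher in macula densa cells at an adjusted p below 0.05 (edgeR, both diets averaged). All tested genes had 7.53% called higher. Among the 8 markers, 1 had a negative log2 fold change. The control-cell label was borne out only in part. Besides collecting duct markers (104 to 899 CPM for 8 genes), these libraries carried endothelial markers at 53.6 to 1695 CPM (10 genes) and podocyte markers at 51.7 to 1408 CPM (8 genes). Control-cell replicate 4 on control diet and replicate 3 on LS+ACEi were the lowest of their groups for endothelial markers, at 53.6 and 277 CPM. In bulk libraries, fewer cells of a type and less RNA per cell cannot be told apart.

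Expressed per kilobase of exon, the levels placed class I chains and Ifit3 at the top of the members. In control cells on control diet, the mean level was 31.8 CPM per kb for B2m, 26.9 for Ifit3, 23.9 for H2-D1 and 14.3 for H2-K1. In macula densa cells on control diet it was 11.6 CPM per kb for H2-D1, 8.90 for H2-K1, 8.85 for B2m, 4.69 for Tapbp and 3.69 for Ifit3. B2m, H2-D1 and H2-K1 therefore headed the members in macula densa cells. H2-K1 and B2m did not differ there beyond their spread (SD 0.36 CPM per kb for H2-K1 and 0.62 for B2m, n = 2). The SD of H2-D1 was 1.12 CPM per kb. Isg15 was at the floor of 3 counts or fewer in every macula densa library, and its highest level in any library was 1.41 CPM, in control-cell replicate 2 on control diet. No other member was at the floor in all macula densa libraries, although Sp100 had 0 counts in both on LS+ACEi.

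**Figure D1:**
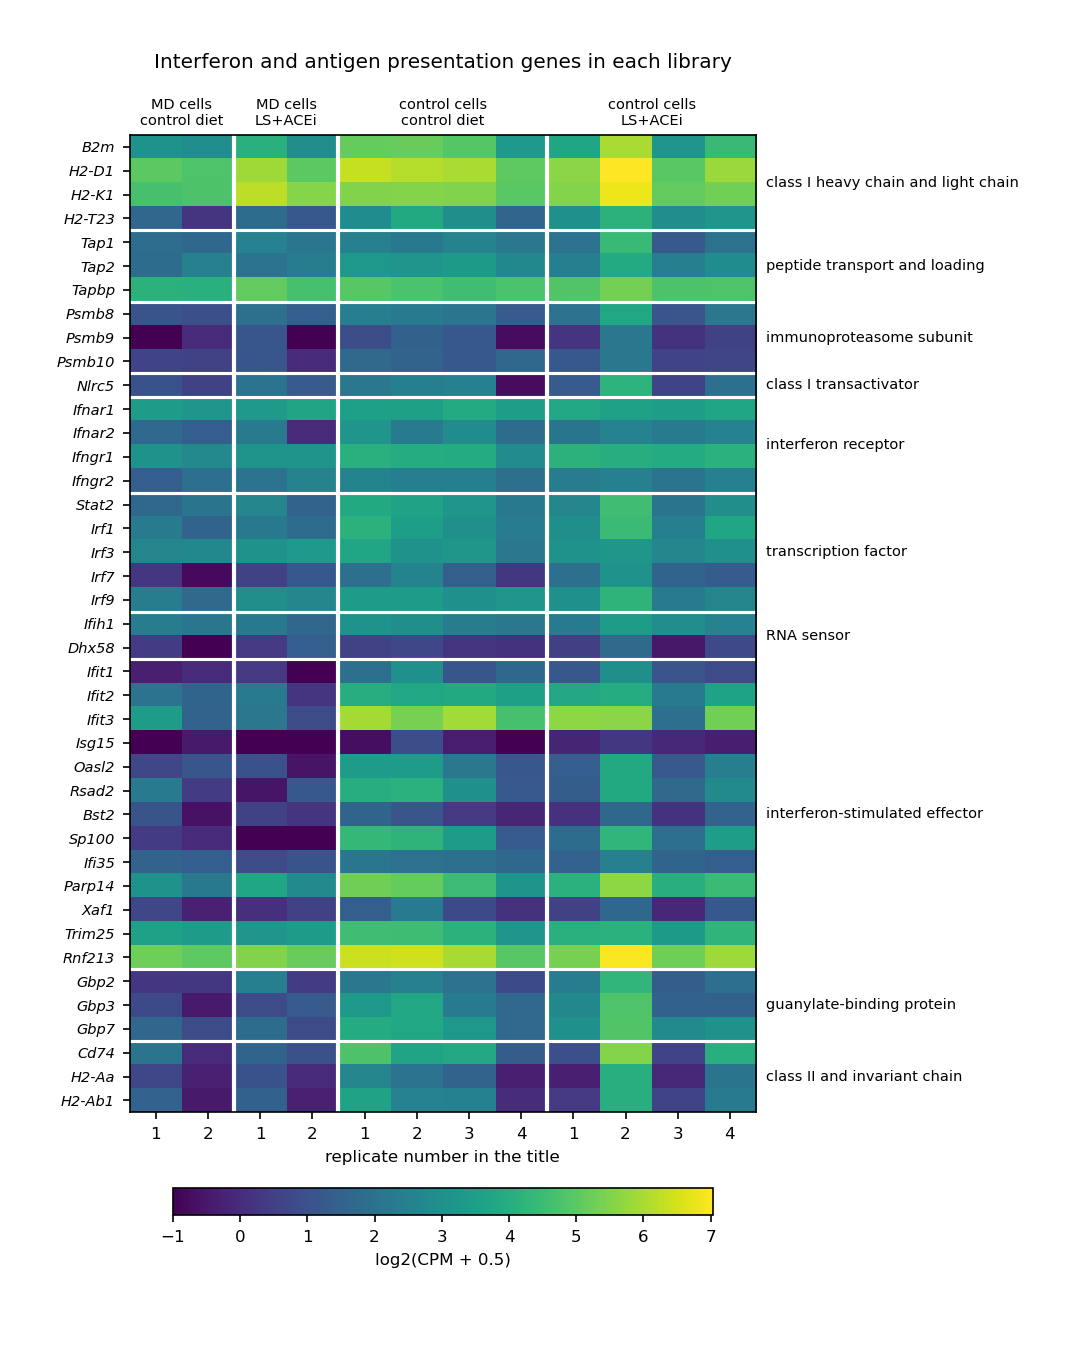
Heat map of log2(CPM + 0.5) for the 41 members (rows, grouped by role) in each of the 12 libraries (columns, numbered by the replicate number of the title within each group). H2-D1, H2-K1 and Rnf213 are bright in every library, the effectors and guanylate-binding proteins are darker in macula densa columns, and control-cell replicate 2 on LS+ACEi is the brightest of its group for 34 of the 40 tested members.

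With both diets averaged, 13 of the 40 tested members were lower in macula densa cells and 0 were higher at an adjusted p below 0.05 (edgeR's quasi-likelihood test, Benjamini-Hochberg adjustment over all 14180 genes tested), against 13.9% of all tested genes lower, 7.53% higher and 21.4% called in either direction. The 13 were H2-T23, Tap2, Ifngr1, Irf1, Irf7, Ifit1, Ifit2, Ifit3, Oasl2, Sp100, Parp14, Gbp3 and Gbp7. The median log2 fold change was -1.26 over the tested members and -0.06 over all tested genes, and 40 of 40 tested members had a negative value, against 53.9% of all tested genes. On both diets at once, the groups did not overlap for 10 tested members, all lower in macula densa cells, against 7.59% of all tested genes lower and 6.02% higher. The level of the count filter was reached in fewer than 2 macula densa libraries by 8 of the 40 tested members, Irf7, Ifit1 and Sp100 among them, so these 8 entered the test through the control cells. On control diet alone 2 members were lower (Ifit2 and Sp100), with 3.87% of all tested genes called lower and 6.57% in either direction. On LS+ACEi alone 2 were lower (Ifit3 and Sp100), with 4.13% and 7.28% for all tested genes. The average over diets uses 4 macula densa and 8 control-cell libraries and shares its libraries with both single-diet comparisons.

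The count changed when single libraries were left out. The average comparison called 3 members when macula densa replicate 2 on LS+ACEi was left out, 4 when the control-diet macula densa replicate 2 was, and 21 when control-cell replicate 4 on control diet was. The calls over all genes moved the same way, to 1858, 1681 and 3972 from 3032, and the share called lower to 7.47%, 6.87% and 17.5%. Among the called members, leaving out 1 library moved the log2 fold change most for Ifit1 (-5.45 to -2.55), Oasl2 (-3.58 to -2.01), Irf7 (-3.22 to -1.74), Ifit2 (-3.12 to -1.72) and Gbp3 (-3.67 to -2.28). The extremes came without a macula densa library, except the higher value of Gbp3, which came without control-cell replicate 2 on LS+ACEi. Ifit2, Ifit3 and Sp100 were called under every alternative tried, and 38 of the 40 tested members stayed below 0 under every alternative.

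**Figure D2:**
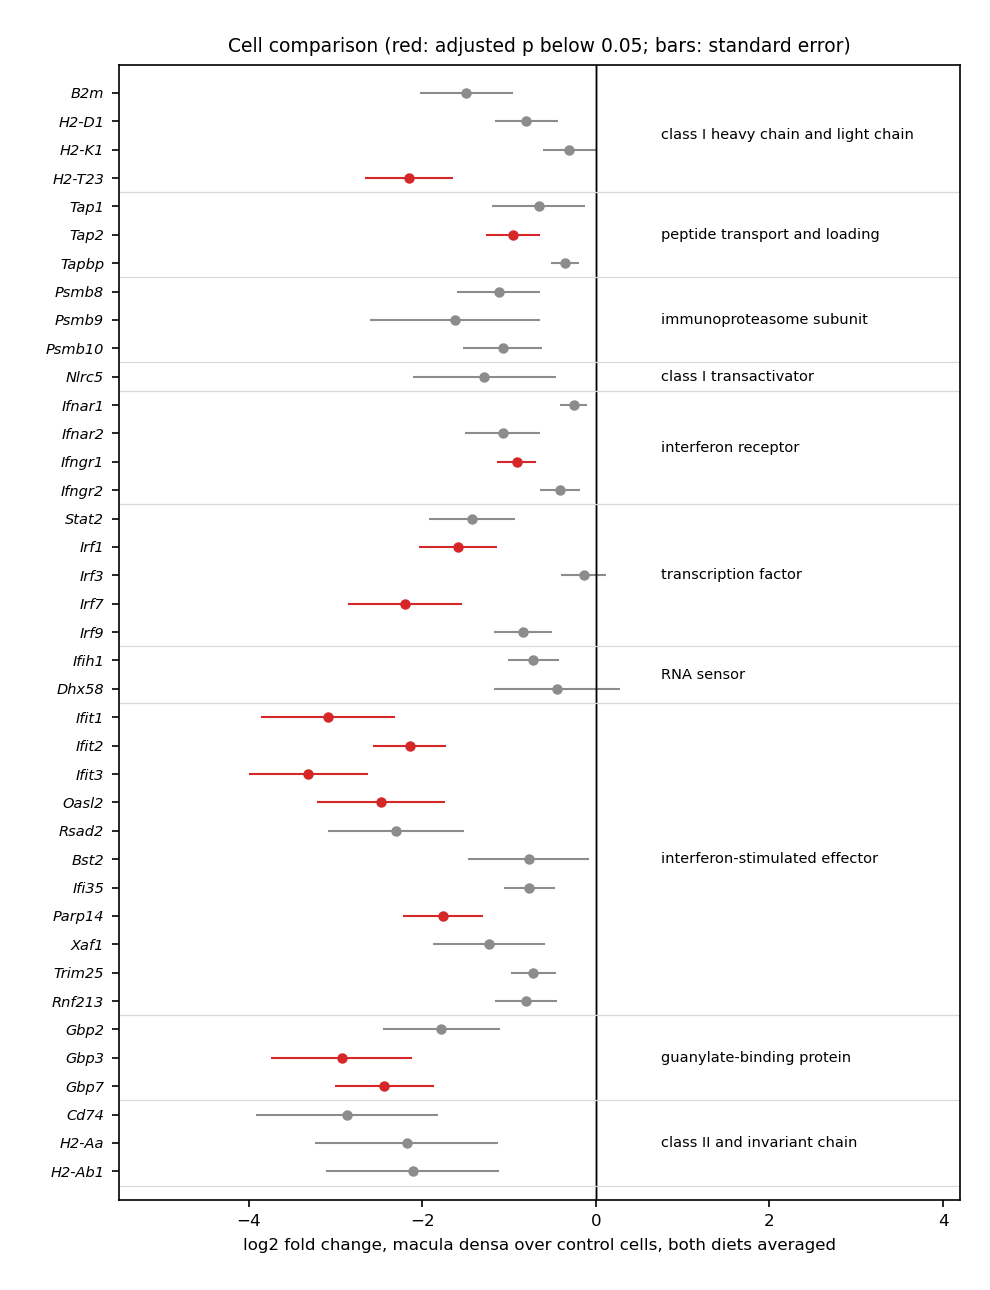
Log2 fold change of macula densa over control cells, both diets averaged, for 39 tested members (points) with the standard error (bars) from the edgeR fit to 12 libraries. Red marks an adjusted p below 0.05. All points lie left of 0, from -0.14 for Irf3 to -3.32 for Ifit3, and Sp100, with 0 counts in one group, is left out.

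The class I chains differed in size of effect. H2-T23 encodes the non-classical class I heavy chain Qa-1, a ligand of natural killer cell receptors. It measured 2.66 and 0.65 CPM in macula densa cells on control diet and 3.06 and 1.80 CPM on LS+ACEi. In control cells it measured 6.96, 14.3, 7.41 and 2.58 CPM on control diet and 7.67, 17.3, 7.13 and 8.73 CPM on LS+ACEi. The groups overlapped on control diet through control-cell replicate 4 and did not overlap on LS+ACEi. H2-T23 was 4.47-fold lower in macula densa cells (log2 fold change -2.16, SE 0.51, adjusted p = 0.0109 by edgeR).

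H2-D1, a classical class I heavy chain that presents peptides to CD8+ T cells, was one of only 2 members averaging at least 50 CPM over all libraries. Its level was 32 and 27.9 CPM in macula densa cells on control diet and 58.7 and 31.8 CPM on LS+ACEi. Control cells had 80.1, 70.5, 63.8 and 32.4 CPM on control diet and 49.4, 130.3, 31.2 and 56.4 CPM on LS+ACEi. The ranges overlapped on LS+ACEi, and the average difference did not pass the test (log2 fold change -0.80, SE 0.37, adjusted p = 0.142 by edgeR). H2-K1, the other classical heavy chain, had a log2 fold change of -0.30 (SE 0.30), and B2m, the light chain shared by all class I molecules, -1.49 (SE 0.53). Their adjusted p-values were 0.516 and 0.0649 by edgeR. H2-D1, H2-K1 and H2-T23 had values that were not whole in all 12 libraries, so reads shared with related class I genes could be split among them. The summed counts of H2-D1 and H2-K1 gave a log2 fold change of -0.56 (adjusted p = 0.259 by edgeR).

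Among the genes that supply peptide, Tap2, a subunit of the peptide transporter, was the one called. It measured 3.07 and 5.12 CPM in macula densa cells on control diet and 3.63 and 4.75 CPM on LS+ACEi, against 9.24, 8.54, 9.98 and 6.19 CPM and 4.99, 14.4, 5.03 and 7.01 CPM in control cells. Every control-cell library lay above the macula densa libraries of its diet, by a small margin on LS+ACEi. The average log2 fold change was -0.96 (SE 0.31, adjusted p = 0.0469 by edgeR), close to the threshold, and the call was kept in 12 of 23 alternatives (adjusted p from 0.0085 to 0.151). Tap1, the partner subunit, had -0.66 and the loading factor Tapbp (tapasin) -0.35, with adjusted p-values of 0.415 and 0.141. The immunoproteasome subunits Psmb8, Psmb9 and Psmb10, which replace the standard catalytic subunits after interferon exposure, had -1.12, -1.62 and -1.07, and none passed the test (adjusted p from 0.113 to 0.270). Exons of Tap1 and Psmb9 overlap by 212 bases on opposite strands, and no source says that strand was used in counting. Called members with exons overlapping other-strand genes were Tap2 (Gm15821, 533 bases, and Gm20496, 165 bases), Irf1 (Gm17334, 135 bases) and Irf7 (Phrf1, 45 bases). On the same strand they were Gbp7 (Gm43802, 637 bases), Parp14 (Gm49730, 110 bases) and Sp100 (n-R5s215, 104 bases). Nlrc5, which drives class I transcription, had -1.29 (SE 0.82, adjusted p = 0.299 by edgeR), with control-cell values from 0.10 to 17.8 CPM.

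The interferon receptor chains had smaller differences, and 1 of 4 was called. Ifngr1, the ligand-binding chain for interferon gamma, was 8.30 and 6.42 CPM in macula densa cells on control diet and 8.41 and 8.35 CPM on LS+ACEi. Control cells gave 16.7, 15.2, 14.8 and 6.91 CPM on control diet and 17.3, 15.6, 14.9 and 17.2 CPM on LS+ACEi. Control-cell replicate 4 on control diet lay inside the macula densa range, and the other 7 lay above all 4 macula densa libraries. Ifngr1 was 1.88-fold lower in macula densa cells (log2 fold change -0.91, SE 0.22, adjusted p = 0.0134 by edgeR). Ifnar1, Ifnar2 and Ifngr2 had log2 fold changes of -0.25, -1.07 and -0.42 and were not called (adjusted p from 0.0996 to 0.277). The 4 receptor chains summed to 20.6 to 26.7 CPM in macula densa libraries and to 24.2 to 42.2 CPM in control-cell libraries.

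Of 5 transcription factors 2 were lower. Irf1, an interferon gamma-induced activator of class I and guanylate-binding protein genes, measured 4.61 and 2.44 CPM in macula densa cells on control diet and 4.21 and 3.11 CPM on LS+ACEi. In control cells it measured 17.4, 10.6, 7.70 and 4.64 CPM on control diet and 7.44, 21.7, 5.03 and 12.6 CPM on LS+ACEi. Its groups did not overlap on either diet, though control-cell replicate 4 on control diet lay only just above the macula densa range. Irf1 was 3.01-fold lower (log2 fold change -1.59, SE 0.45, adjusted p = 0.0253 by edgeR).

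Irf7, the amplifier of type I interferon production, measured 0.72 and 0.081 CPM in macula densa cells on control diet and 0.96 and 1.80 CPM on LS+ACEi. Control cells measured 3.37, 5.63, 2.19 and 0.72 CPM on control diet and 3.38, 8.05, 2.52 and 2.03 CPM on LS+ACEi. The lowest control-cell library on control diet equalled the highest macula densa library to the second decimal. Irf7 was 4.59-fold lower on average (log2 fold change -2.20, SE 0.66, adjusted p = 0.0324 by edgeR). Stat2 and Irf9, which act at the ISRE, had -1.43 and -0.84 (adjusted p = 0.0595 and 0.0942 by edgeR), and Irf3, which is activated by phosphorylation rather than by transcription, had -0.14 (SE 0.26). The cytosolic RNA sensors Ifih1 (MDA5) and Dhx58 (LGP2) had -0.72 and -0.45, neither past the threshold.

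The interferon-stimulated effectors held 6 of the 13 called members. Ifit1, Ifit2 and Ifit3 encode tetratricopeptide proteins that bind viral RNA or the translation machinery and lie side by side on chromosome 19 (Ifit2 at chr19:34550694-34576419, Ifit3 at chr19:34583531-34588731 and Ifit1 at chr19:34640871-34650009, GENCODE M21 on GRCm38). Ifit3 measured 10.4 and 2.44 CPM in macula densa cells on control diet and 4.02 and 1.31 CPM on LS+ACEi. In control cells it measured 61.5, 41, 60.0 and 25.2 CPM on control diet and 50.6, 49.3, 3.35 and 39.1 CPM on LS+ACEi. Apart from control-cell replicate 3 on LS+ACEi, each control-cell library exceeded all macula densa libraries. Ifit3 was 9.96-fold lower on average (log2 fold change -3.32, SE 0.69, adjusted p = 0.0059 by edgeR) and 13.5-fold lower on LS+ACEi (log2 fold change -3.76, SE 1.02, adjusted p = 0.0450). Counts of Ifit3 and its close copy Ifit3b, summed because reads may be shared, gave an average of -3.31 (SE 0.63, adjusted p = 0.0039 by edgeR).

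Ifit2 measured 3.69 and 2.52 CPM in macula densa cells on control diet and 4.59 and 0.66 CPM on LS+ACEi. Control cells had 15.5, 13.6, 14.1 and 11.4 CPM on control diet and 14.0, 15.1, 4.40 and 12.2 CPM on LS+ACEi. The control-diet groups stood well apart, and on LS+ACEi control-cell replicate 3 fell between both macula densa libraries. Ifit2 was 4.43-fold lower on average (log2 fold change -2.15, SE 0.42, adjusted p = 0.0046 by edgeR) and 4.41-fold lower on control diet (adjusted p = 0.0471). Ifit1 measured 0.31 and 0.49 CPM on control diet and 0.77 and 0 CPM on LS+ACEi in macula densa cells, against 3.37, 7.69, 1.71 and 2.68 CPM and 1.76, 7.56, 1.68 and 1.32 CPM in control cells. The macula densa values are 3, 6, 4 and 0 counts, close to the floor. No library of one population reached the other on either diet, and the average log2 fold change was -3.09 (SE 0.77, adjusted p = 0.0144 by edgeR). It was -5.45 without macula densa replicate 1 on LS+ACEi, which left a library with 0 counts alone in that group, and -2.55 without replicate 2. The call was lost without that replicate 2 or either control-diet macula densa library.

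Sp100 encodes a component of the promyelocytic leukaemia nuclear bodies and lies at chr1:85649988-85709998 (GENCODE M21). It measured 0.82 and 0.49 CPM (8 and 6 counts) in macula densa cells on control diet and had 0 counts in both libraries on LS+ACEi. Control cells measured 20.0, 18.4, 10.5 and 1.96 CPM on control diet and 3.07, 19.0, 3.35 and 10.9 CPM on LS+ACEi. All control-cell libraries lay above all macula densa libraries. On control diet Sp100 was 19.3-fold lower (log2 fold change -4.27, SE 1.12, adjusted p = 0.0456 by edgeR). On LS+ACEi it was at least 17.1-fold lower, taking the floor of 3 counts in each macula densa library (at least 10.8-fold without control-cell replicate 2), with adjusted p = 0.0325 (edgeR), and the average comparison gave adjusted p = 0.0033. Sp100 belongs to a locus with related gene copies and had values that were not whole in 9 of 12 libraries.

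Oasl2, a protein of the oligoadenylate synthetase family, measured 1.13 and 1.71 CPM in macula densa cells on control diet and 1.53 and 0.16 CPM on LS+ACEi. Control cells measured 10.4, 10.4, 4.18 and 1.75 CPM on control diet and 2.15, 14.2, 1.89 and 4.87 CPM on LS+ACEi. The separation was narrow at control-cell replicate 4 on control diet and replicate 3 on LS+ACEi and wide elsewhere. The average was 5.58-fold lower in macula densa cells (log2 fold change -2.48, SE 0.74, adjusted p = 0.0321 by edgeR). Parp14, an ADP-ribosyltransferase, measured 7.99 and 4.23 CPM and then 13 and 6.39 CPM in macula densa cells on the 2 diets. Its control-cell levels were 38.3, 34.8, 22.1 and 8.46 CPM on control diet and 17, 50.3, 16.1 and 21.9 CPM on LS+ACEi. They exceeded the macula densa levels of the same diet in every library, and the average was 3.39-fold lower (log2 fold change -1.76, SE 0.46, adjusted p = 0.0181 by edgeR).

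Rnf213, a very large ubiquitin ligase and the other member above 50 CPM, measured 37.9 and 32.4 CPM in macula densa cells on control diet and 44.8 and 35.0 CPM on LS+ACEi. Control cells measured 82.8, 87.1, 62.6 and 30.3 CPM on control diet and 41.4, 124, 37.9 and 58.0 CPM on LS+ACEi. Both ranges overlapped, and the average was not called (log2 fold change -0.81, SE 0.35, adjusted p = 0.126 by edgeR). The remaining tested effectors were not called either. Rsad2 (viperin), which blocks viral replication, had -2.30 (adjusted p = 0.0539 by edgeR), Xaf1 had -1.23, Bst2 (tetherin) and Ifi35 each had -0.77, and Trim25, which ubiquitinates the RNA sensor RIG-I, had -0.72.

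The guanylate-binding proteins are interferon gamma-induced GTPases that coat vacuoles holding microbes. Gbp3 measured 1.23 and 0.24 CPM in macula densa cells on control diet and 1.34 and 1.97 CPM on LS+ACEi. In control cells it measured 9.35, 13.6, 4.56 and 2.89 CPM on control diet and 6.21, 27.6, 2.31 and 2.34 CPM on LS+ACEi. The groups were separate on both diets, narrowly so at control-cell replicates 3 and 4 on LS+ACEi. Gbp3 was 7.64-fold lower on average (log2 fold change -2.93, SE 0.82, adjusted p = 0.0240 by edgeR).

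Gbp7 measured 2.66 and 1.30 CPM in macula densa cells on control diet and 3.06 and 1.31 CPM on LS+ACEi, against 14.9, 13.5, 9.32 and 2.89 CPM and 7.75, 28.1, 6.71 and 8.02 CPM in control cells. It too was separate on both diets, most narrowly at control-cell replicate 4 on control diet. Gbp7 was 5.42-fold lower (log2 fold change -2.44, SE 0.57, adjusted p = 0.0104 by edgeR). Gbp2, their neighbour on chromosome 3, had -1.78 (SE 0.67, adjusted p = 0.0795). Summed over these 3 similar genes, the log2 fold change was -2.38 (SE 0.62, adjusted p = 0.0172 by edgeR).

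Class II genes had large differences that were not called, and their control-cell libraries disagreed with each other. Cd74, the invariant chain, had a log2 fold change of -2.87 (SE 1.05, adjusted p = 0.0712 by edgeR), H2-Aa -2.18 and H2-Ab1 -2.11 (adjusted p = 0.164 and 0.157). The 3 genes summed to 44.6, 21.6, 21.8 and 2.89 CPM in control cells on control diet and to 2.53, 78.6, 2.52 and 24.7 CPM on LS+ACEi. In macula densa cells they summed to 7.27 and 1.06 CPM on control diet and to 6.31 and 2.29 CPM on LS+ACEi.

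Markers of other cells differed between the populations along with the members. Summed over 10 genes, endothelial markers were at 14.4 to 187 CPM in macula densa libraries and 53.6 to 1695 CPM in control-cell libraries, and 10 of 10 were lower in macula densa cells at an adjusted p below 0.05 (edgeR, both diets averaged). Podocyte markers were at 21.5 to 158 CPM and 51.7 to 1408 CPM, with 7 of 8 lower. The 11 macrophage and dendritic cell markers summed to 1.06 to 5.02 CPM and 2.31 to 77.4 CPM. Of these 11, 5 were tested and 2 were lower, one of them Csf1r, the macrophage growth factor receptor (10.5-fold lower, adjusted p = 0.0044 by edgeR). The defining macrophage marker Adgre1 was at 0 in 3 of 4 macula densa libraries and between 0 and 0.98 CPM in control cells. The 6 general leukocyte markers summed to 0.66 to 2.44 CPM and 1.05 to 49.8 CPM, with 2 of 5 tested lower, and of 10 lymphocyte markers 1 was tested and 0 were called. The part of these cells in the members' difference was not tested.

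**Figure D3:**
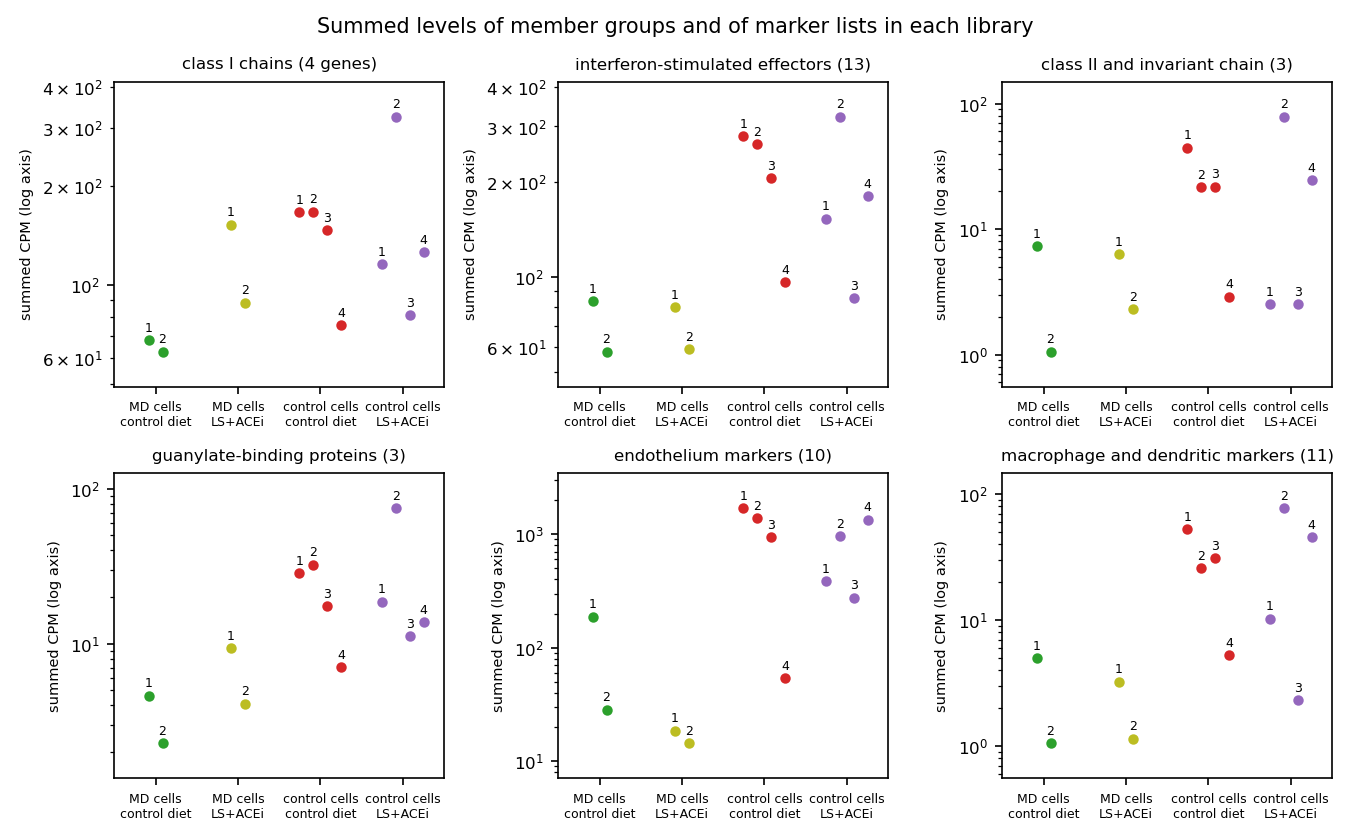
Summed CPM (log axis) of 4 groups of members and of 2 marker lists in each of the 12 libraries, with the replicate number above each point. Control-cell replicate 4 on control diet and replicate 3 on LS+ACEi lie low in the endothelial panel (53.6 and 277 CPM). They also lie low in the effector panel (96.0 and 85.5 CPM) and the macrophage panel (5.26 and 2.31 CPM). Control-cell replicate 2 on LS+ACEi is the highest of its group for class I, effectors, class II, guanylate-binding proteins and macrophage markers.

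Both control-cell libraries lowest in endothelial markers within their group were often the lowest in the members. They were also the lowest of their groups in some other marker lists and the highest in others. General leukocyte markers were at 3.71 CPM, against 14.9 to 36.3 CPM, on control diet and 1.05 CPM, against 3.91 to 49.8 CPM, on LS+ACEi. Macrophage and dendritic cell markers were at 5.26 CPM, against 25.9 to 52.7 CPM, and 2.31 CPM, against 10.3 to 77.4 CPM. Thick ascending limb markers were the highest, at 1638 CPM (others 210 to 1039 CPM) and 1069 CPM (others 358 to 803 CPM). So were macula densa markers, at 344 CPM (others 87.0 to 255 CPM) and 449 CPM (others 182 to 241 CPM). Collecting duct markers were the highest in replicate 4 on control diet (899 CPM) and the lowest in replicate 3 on LS+ACEi (104 CPM). Control-cell replicate 4 on control diet was the lowest of its group for 36 of 40 tested members, against 37.9% of all tested genes. Replicate 3 on LS+ACEi was the lowest for 29 of 40, against 34.3%. Podocyte markers were again the lowest in replicate 4 on control diet (51.7 CPM). On LS+ACEi they were the lowest in replicate 1 (148 CPM, against 228 CPM in replicate 3). That replicate 1 was the lowest for 8 of 40 tested members, against 22.9% of all tested genes. Control-cell replicate 4 exceeded both macula densa libraries on control diet for 25 of 40 tested members (62.5%, against 36.2% of all tested genes). It was below both for 5 (12.5%, against 35.2%). Its median log2 ratio to them was 0.27 over the tested members and -0.03 over all tested genes. Replicate 3 exceeded both macula densa libraries on LS+ACEi for 14 of 40 (35.0%, against 36.5%) and was below both for 12 (30.0%, against 32.8%), with a median log2 ratio of -0.07. By median ratio, the members lay above the macula densa levels in the first of these libraries and not in the second. Each comparison set a single control-cell library against the macula densa libraries of its diet. The part of cell make-up in these values was not tested.

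At the other end, control-cell replicate 2 on LS+ACEi was the highest of its group for 34 of 40 tested members, against 27.0% of all tested genes. It was also the highest for 11 of 11 further interferon gamma-induced GTPases, which summed to 304 CPM there and to 15.1 to 36.8 CPM in the other 3 libraries of its group. Its members summed to 1046 CPM, compared with 282 to 475 CPM in those libraries. Its macrophage and dendritic cell markers (77.4 CPM) were the highest of the group as well. So were its markers of podocytes (1139 CPM), smooth muscle and renin cells (590 CPM), all leukocytes (49.8 CPM) and lymphocytes (5.86 CPM). Its endothelial (961 CPM), collecting duct (186 CPM) and thick ascending limb markers (512 CPM) were not. It was the least deeply sequenced library, with 4259020 counts.

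The diet comparison in macula densa cells called 0 members, with 0 of all 14180 tested genes called (0%). By DESeq2's Wald test 0 members were called too, with 63 of all tested genes higher and 30 lower (0.656%). At an unadjusted p below 0.05 edgeR gave 2 members, H2-K1 and Tapbp, both higher on LS+ACEi, and 1596 genes in all (11.3%). The median log2 fold change was 0.21 over the 40 tested members and -0.02 over all tested genes, with 11 members below 0 against 51.2% of all tested genes. H2-K1 measured 25.4 and 26.9 CPM on control diet and 74.2 and 47.3 CPM on LS+ACEi. Its libraries did not overlap, and the log2 fold change was 1.21 (SE 0.49, adjusted p = 0.397 by edgeR). Fitted to the macula densa libraries alone, H2-K1 was called (log2 fold change 1.23, SE 0.25, adjusted p = 0.0381 by edgeR). That fit tested 30 members among 11321 genes and called 64 genes higher and 41 lower (0.927%).

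Tapbp, which bridges class I and the peptide transporter, measured 17.5 and 16.5 CPM on control diet and 33.7 and 25.2 CPM on LS+ACEi (log2 fold change 0.79, SE 0.26, adjusted p = 0.320 by edgeR). Part of its exons, 904 bases, overlaps Gm19412 on the other strand. In 12 of the 40 tested members both LS+ACEi libraries lay above both control-diet libraries, and in 2 (Ifi35 and Sp100) both lay below, against 18.8% and 21.8% of all tested genes. The 12 were H2-K1, Tap1, Tapbp, Psmb8, Nlrc5, Ifngr1, Ifngr2, Irf3, Irf7, Irf9, Gbp2 and Gbp3. Ifit3 went the other way in the fit (log2 fold change -1.28, SE 1.05, adjusted p = 0.676 by edgeR).

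The macula densa median moved with the libraries left out. Without macula densa replicate 1 on LS+ACEi it was -0.12 over the tested members and -0.14 over all tested genes, and without replicate 2 it was 0.72 and -0.08. Without the control-diet replicate 1 it was 0.65 and 0.01, and without the control-diet replicate 2 it was 0.00057 and -0.0093. Replicate 1 exceeded replicate 2 for 28 of 40 tested members, against 51.2% of all tested genes.

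In control cells 0 members were called between diets, by edgeR or by DESeq2, and 0 had an unadjusted p below 0.05, against 0.00705% of all tested genes called by edgeR, 0.522% by DESeq2 and 6.44% at an unadjusted p below 0.05. The median log2 fold change was 0.02 over the 40 tested members and -0.04 over all tested genes, with values from -0.75 for Rsad2 to 0.99 for Gbp2. The groups overlapped for every tested member, against 2.06% of all tested genes lower and 2.12% higher without overlap. Without control-cell replicate 2 on LS+ACEi the median was -0.51. The difference between both diet effects was called for 0 members by edgeR and by DESeq2, with 0 at an unadjusted p below 0.05. For all tested genes 0% were called by edgeR, 0.0917% by DESeq2, and 7.02% had such a p. For H2-K1 the diet effects were 1.21 in macula densa cells and 0.46 in control cells (log2).

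**Figure D4:**
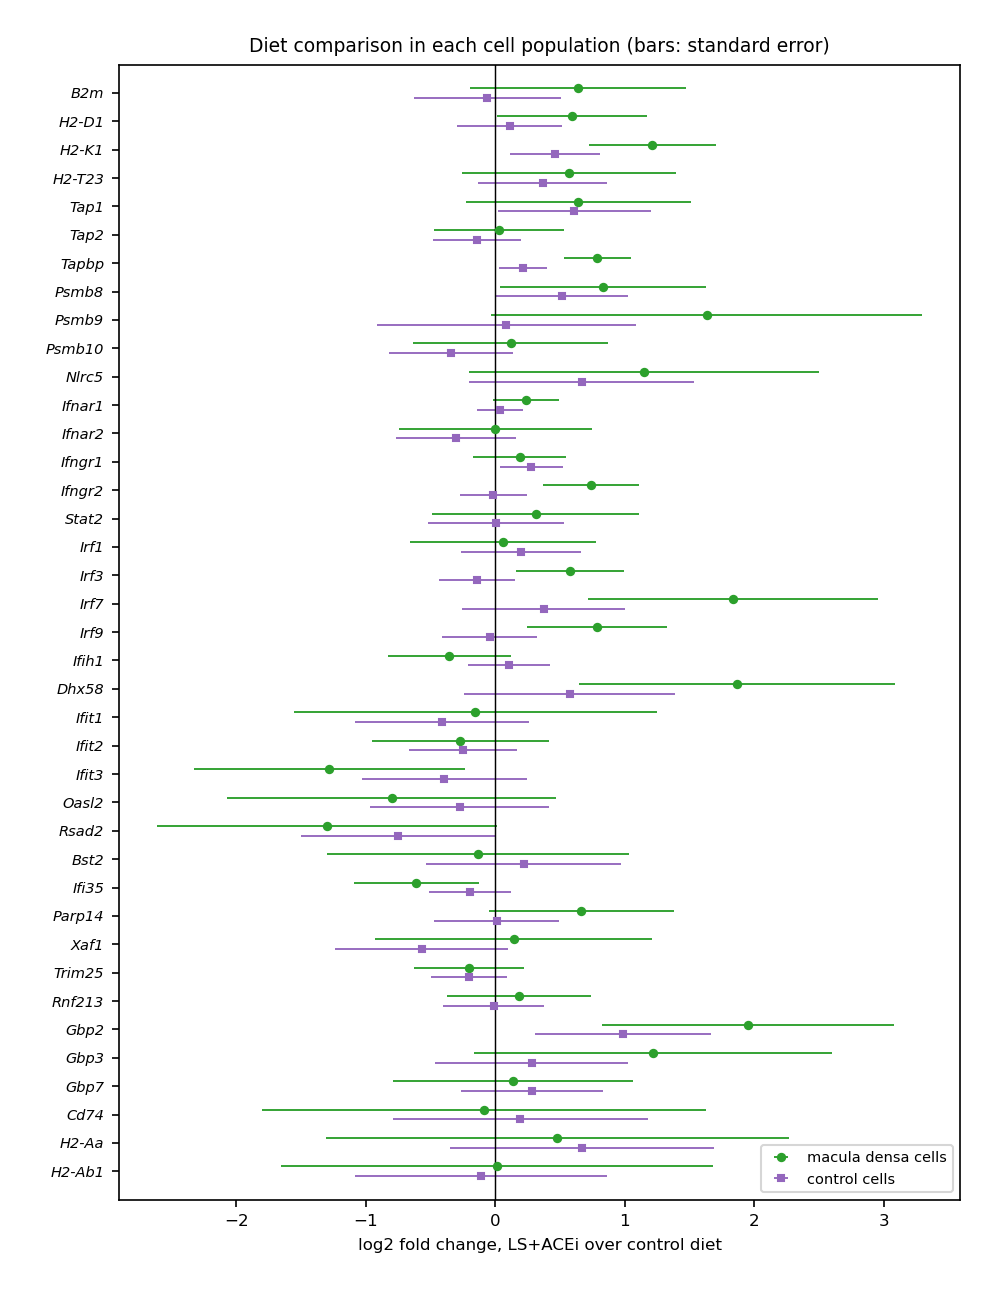
Log2 fold change of LS+ACEi over control diet in macula densa cells (green circles) and control cells (purple squares) for 39 tested members, with standard errors from the edgeR fit. Most bars cross 0, and H2-K1 (1.21) and Tapbp (0.79) have the macula densa bars that stay farthest from 0 relative to their length. Sp100, with 0 counts in one group, is left out.

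Further genes of the same pathways were examined from a list of 103, of which 100 had rows and 85 were tested. With both diets averaged, 17 of the 85 were lower in macula densa cells and 3 higher, with a median log2 fold change of -0.92, against 13.9% of all tested genes lower and 7.53% higher. Of 30 further interferon-stimulated genes 11 were lower (36.7%), of 18 type I signalling and sensor genes 3 (16.7%), and of 10 further interferon gamma-induced GTPases 0, although the median of the last was -2.17. Among 27 other antigen presentation genes 3 were lower and 3 higher (11.1% each). Apart from the first of these lists, the shares lay near or below that of all tested genes. In both diet comparisons and in their difference 0 of the 85 were called by edgeR, with 8, 7 and 2 at an unadjusted p below 0.05. For all tested genes 0%, 0.00705% and 0% were called, and 11.3%, 6.44% and 7.02% had such a p.

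The largest called differences among well-expressed genes of that list were in non-classical class I and interferon-inducible genes. H2-Q6 and H2-Q7, class I heavy chains of the Qa-2 group, had log2 fold changes of -4.48 (SE 1.32, adjusted p = 0.0304) and -3.43 (SE 0.97, adjusted p = 0.0255 by edgeR). H2-Q6 measured 5.53 and 1.14 CPM in macula densa cells on control diet against 46.9, 43.5, 24.5 and 0.72 CPM in control cells. The outlying 0.72 CPM was again control-cell replicate 4. Ifi44, Ifi203, a member of the interferon-inducible p200 family, and Trim30a had -4.00, -3.95 and -3.44 (adjusted p from 0.0092 to 0.0166 by edgeR).

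The 3 genes that were higher act in the endoplasmic reticulum and the lysosome and also serve proteins other than MHC. Canx (calnexin) and Pdia3, chaperones of glycoprotein folding that also assist class I assembly, had 0.53 (SE 0.16, adjusted p = 0.0341) and 0.56 (SE 0.16, adjusted p = 0.0285 by edgeR). Lgmn (legumain), a lysosomal protease that trims class II antigens, measured 34.8 and 30.9 CPM in macula densa cells and 9.35, 9.38, 10.6 and 12 CPM in control cells on control diet. On LS+ACEi it measured 39.6 and 44.9 CPM, against 37.9, 16.8, 44.4 and 14.2 CPM. The groups were far apart on control diet and overlapped on LS+ACEi, and the average log2 fold change was 1.12 (SE 0.27, adjusted p = 0.0117 by edgeR).

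By promoter letters, the 11 tested members with an ISRE core had a median log2 fold change of -2.16 in the average cell comparison, with 5 called, and the 23 tested members without one had -0.91, with 6 called. The ISRE group includes Ifit1, Ifit3, Gbp3, Gbp7 and H2-T23, whose cores are printed above. The 6 called without a core in this window were Ifit2, Ifngr1, Irf1, Irf7, Oasl2 and Sp100. Tap2 and Parp14, also called, had no promoter entry. Bst2, Gbp2 and Ifit1 in the ISRE group passed the count filter through the control cells, as did Psmb9, Irf7, Sp100 and Xaf1 in the other. The medians and calls therefore rest partly on members kept for their control-cell levels. Both groups were read from the same libraries, and the difference between them was not tested.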

How the data were processed

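Expected counts per gene, not whole in 14.8% of values (tolerance 1e-06), were deposited by the authors for the 12 libraries. STAR 2.61, Partek and mm10 are named per the submitters' processing notes, and the counter, its strand setting and the annotation are not given in the sources used here. Per the labels' protocols, RNA was purified with miRNeasy and all libraries were prepared together with the SMARTer Stranded Total-RNA Pico v2 kit. Of 23378 rows, 23351 equalled GENCODE M21 (GRCm38) in symbol, chromosome and start, and in end after subtracting 1. No column lacked a sample (0 columns). No gene summed to under 10 counts.

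Groups came from the labels. Counts were rounded and tested with edgeR 4.0.16 (glmQLFit, glmQLFTest) in R 4.3.3, with 1 coefficient per group over all 12 libraries. Genes were kept by filterByExpr (count minimum 10, total minimum 15), which left 14180, and scaled with trimmed means of M values. Adjusted p-values are Benjamini-Hochberg over all tested genes, with a threshold of 0.05. The SE is the log2 fold change divided by the square root of F. The floor of 3 counts was 0.23 to 0.73 CPM per library and, like counts, covers counting error only. Replicates were distinct libraries (lowest chi-square per degree of freedom 7.02).

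On simulated data with 200 genes changed 4-fold, the average cell comparison (13601 genes) recovered 72.0% with 9 false calls, the macula densa diet comparison (13585 genes) 25.5% with 0, and the control-cell diet comparison (13634 genes) 54.0% with 4.

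Values in every library are given for members past the threshold in any comparison and for members averaging at least 50 CPM. Other pathway genes were named if past the threshold with at least 5 CPM on average, at most 5 per direction. The members and lists were chosen with earlier results of these data known. Alternatives were scaling, filters, DESeq2 1.42.0, blocks by replicate number and left-out libraries. Another 3 were chosen after seeing the data: the 8 libraries sharing a description number, leaving out both control-diet libraries that stood apart in endothelial and podocyte markers (macula densa replicate 1 and control-cell replicate 4), and summed counts of similar genes.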

Additional observations from a re-analysis of the deposited data

Results flagged for a closer look

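In groups of 4 libraries, the highest or lowest value was compared with the others on the scale log2(CPM + 0.5). Of 80 such groups of tested members, 9 held a library farther from the rest than Dixon's 95% limit. Chance would give about 1 in 20, or 4, if the groups were independent. The groups share the same libraries, and the check was not run on all tested genes. The 9 therefore do not show an excess particular to the members.

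Control-cell replicate 4 on control diet accounted for 4 of these. B2m was 9.59 CPM there and 29.7 to 35.6 CPM in the other 3 libraries, and H2-K1 was 30.9 CPM against 44.9 to 46.4 CPM. Nlrc5 was 0.10 CPM against 4.02 to 5.23 CPM, and Ifngr1 was 6.91 CPM against 14.8 to 16.7 CPM.

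Control-cell replicate 2 on LS+ACEi accounted for 3, all high. Tapbp was 40.5 CPM there and 27.3 to 28.2 CPM in the other 3, Ifit1 was 7.56 CPM against 1.32 to 1.76 CPM, and Gbp7 was 28.1 CPM against 6.71 to 8.02 CPM. Ifit3 was low in control-cell replicate 3 on LS+ACEi, at 3.35 CPM against 39.1 to 50.6 CPM. Ifnar1 was high in control-cell replicate 3 on control diet, at 14.5 CPM against 10.8 to 11.3 CPM. The causes were not tested.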

How the results depend on the processing

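The counts of called members moved with the processing and their direction did not. Of 388 values of called members under alternatives, 312 kept their call, 76 lost it and 0 reversed. In the control-diet cell comparison (2 called), library totals alone and a mean of at least 5 CPM gave 0 (with 2.31% and 5.15% of all genes lower). Fitting only the groups compared gave 1 (1.91%), and DESeq2's Wald test gave 10 (9.95%), against 3.87% in the main fit. In the LS+ACEi comparison (2 called), library totals alone gave 1 (2.77% of all genes lower) and DESeq2's Wald test 7 (8.75%, against 4.13%). Leaving out 1 library gave 0 to 11 on control diet, 0 to 6 on LS+ACEi and 3 to 21 for the average (13 called). The 0 on control diet came without either macula densa control-diet library, control-cell replicate 1, 2 or 3 on control diet, or control-cell replicate 4 on LS+ACEi. On LS+ACEi it came without macula densa replicate 2 or control-cell replicate 2 or 4 of that diet. The highest counts all came without control-cell replicate 4 on control diet, with 11.5%, 8.36% and 17.5% of all genes lower. The share of all genes fell along with the counts of 0. It was 1.58% on control diet without control-cell replicate 3 of that diet. On LS+ACEi it was 2.15% without control-cell replicate 4 of that diet. A lone macula densa library was assumed to vary like the other groups.

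A fit to the 8 libraries whose description numbers are shared gave 15 on control diet, 16 on LS+ACEi and 25 for the average, with 11.4%, 10.6% and 17.5% of all genes lower. Without both control-diet libraries that stood apart, the counts were 7, 6 and 16, with 6.32%, 7.71% and 13.8%. The title's replicate number as a replicate block gave 1, 0 and 14, with 1.31%, 1.33% and 8.59%, and the description number as a block gave 25, 20 and 27, with 10.9%, 10.3% and 16.4%. In the latter block, a library whose number is not shared adds nothing to the cell difference. That fit therefore also rests on the 8 libraries that share a number. Control-cell replicate 4 on control diet and replicate 3 on LS+ACEi are not among them. Correlations of deviations ran from -0.38 to 0.28 for title numbers (2 of 14 pairs above 0.1) and from -0.04 to 0.23 for description numbers (1 of 4 above 0.1, and 1 of 4 macula densa libraries correlating best with its own number), so they did not show that the numbers pair the libraries. With 2 macula densa libraries per diet these deviations mirror each other, and the labels do not say what the numbers mark. The block by description number could not be fitted for the diet comparisons. Fitting only the groups compared called 1 member, H2-K1, between diets in macula densa cells, and the diet comparisons otherwise called 0 members throughout. Library totals alone moved the median of all genes in the average comparison from -0.06 to 0.14 and its calls to 1826 higher and 1452 lower from 1068 and 1964, with the members' median at -1.10 and 39 of 40 negative. The causes of these changes were not tested. Depth limited genes near the floor, Isg15, Ifit1 and Sp100 in macula densa cells.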

Other observations

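The numbers in the sample descriptions are shared by some macula densa and control-cell libraries, and the labels do not say what they mark. On LS+ACEi, 25 of the 40 tested members were highest in both libraries that carry the number 8852, macula densa replicate 1 and control-cell replicate 2, against 14.3% of all tested genes. Singly, 28 of the members were higher in that macula densa library (51.2% of all tested genes) and 34 were highest in that control-cell library (27.0%). Single counts that high make most of the 25 coincide whatever the number marks, so the 25 show nothing about it. Whether the shared number bears on these counts was not tested. Class I chains summed to 152 CPM in that macula densa library and 88.3 CPM in the other, and to 324 CPM in that control-cell library and 80.9 to 126 CPM in the other 3. Macrophage and dendritic cell markers summed to 3.25 and 1.15 CPM in the macula densa libraries and to 77.4 CPM, against 2.31 to 45.5 CPM, in the control-cell libraries.

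Lymphocyte markers summed to 4.21 CPM in macula densa replicate 1 on LS+ACEi and to 0.24 to 0.92 CPM in the other 3 macula densa libraries.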
